A study of Mus musculus with 6 samples.

Results

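The 10 genes described here act in haem breakdown and iron handling: Hmox1, Cd163, Ftl1, Fth1, Trf, Tfrc, Steap3, Slc40a1, Cp and Slc11a1. They were taken by symbol from a table of 37475 genes measured by RNA sequencing, and all 10 symbols were found once. The samples were spinal cord of wild-type mice, collected on day 3 after contusion injury at T10. One group of 3 animals received phosphate-buffered saline (PBS) by daily intraperitoneal injection for 3 days. The other group of 3 received syringin, a plant phenylpropanoid glucoside, at 50 mg/kg on the same schedule. All 6 animals were injured, so uninjured levels are not given. Age and sex are not described here. Cord tissue of each animal gave 1 library of polyadenylated RNA. In such bulk samples, fewer cells of a type and less RNA per cell cannot be told apart.

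Bleeding into injured cord releases haemoglobin. The macrophage receptor CD163 takes up haemoglobin bound to haptoglobin, and haem oxygenase 1, encoded by Hmox1, cuts haem into biliverdin, carbon monoxide and iron. Iron that is not used is stored in ferritin, a shell built of light (Ftl1) and heavy (Fth1) chains, of which the heavy chain oxidises iron. Iron travels outside cells on transferrin (Trf), enters through the transferrin receptor (Tfrc), is reduced in endosomes by Steap3, and leaves cells through ferroportin (Slc40a1), helped by the ferroxidase ceruloplasmin (Cp). In central nervous tissue oligodendrocytes are the main makers of transferrin mRNA, and astrocytes carry ceruloplasmin on their surface. Slc11a1 (Nramp1) moves divalent metals out of the phagosome of macrophages.

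Some of these mRNAs carry iron responsive elements, short stem loops bound by the iron regulatory proteins when cells lack iron. In a leader, the bound loop holds back translation. In the tail of Tfrc, bound loops protect the mRNA from decay. The loops are shown because the genes they mark, the ferritin chains and Tfrc, did not move alike in these libraries. The sense strand of protein-coding transcripts (GENCODE M21, build GRCm38) was searched for a C, any 5 bases, CAGTG, any base and then 5 bases that pair with the 5 ahead of CAGTG, with G-T pairs allowed. Capitals mark the bulged C and the 6 loop bases in windows of 30 bases.
Ftl1 leader, chr7:45459778-45459807, minus strand: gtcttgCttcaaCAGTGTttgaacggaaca
Fth1 leader, chr19:9982732-9982761, plus strand: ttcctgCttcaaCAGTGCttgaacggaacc
Slc40a1 leader, chr1:45925464-45925493, minus strand: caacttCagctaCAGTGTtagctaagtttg
Tfrc tail, chr16:32631219-32631248, plus strand: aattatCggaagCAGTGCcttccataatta
Tfrc tail, chr16:32631598-32631627, plus strand: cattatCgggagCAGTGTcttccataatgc
Tfrc tail, chr16:32631663-32631692, plus strand: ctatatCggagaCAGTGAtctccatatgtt
Tfrc tail, chr16:32631710-32631739, plus strand: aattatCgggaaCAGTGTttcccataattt

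Of the 10 genes, 3 had a match in the leader and 1, Tfrc, had 4 matches in the tail. Of 20916 genes with an annotated leader 31 held a match (0.148%), and of 21039 with a tail 129 did (0.613%). A match describes the letters only, and mRNA levels hold no reading of ferritin translation. RefSeq promoter windows (GRCm38.p6, 250 bases before to 50 after a start) were held for 7 of the 10 genes, in 13 windows. Hmox1, Slc40a1 and Trf had no entry. The antioxidant response element core TGACNNNGC, searched on both strands, was in none of the 13 windows, and in 12.4% of all 32851 windows. Sequence outside the windows was not searched, so this does not show that the genes lack the element. The hypoxia response element core ACGTG, searched on both strands, was in the Cd163 window and in both Tfrc windows, which overlap and share 1 site. It begins 2 bases before the start site of the Tfrc window chr16:32608646-32608945 (plus strand) and spans that site. The core is in capitals.
Tfrc promoter match: gtaggtgtACGTGcggaagga
That core was in 19.6% of all windows. The letters of both cores can overlap, and no window of these genes held both.

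Library totals ran from 65579117 to 78843034 counts. Multiples of 4 were in excess among small counts, the count 4 being 1.51 times as frequent as the mean of 3 and 5, and the cause was not tested. Markers of the labelled tissue were present in every library, with Mbp of myelin at 9333 to 13006 and Snap25 of neurons at 279.7 to 811 CPM (counts scaled to a common library size with TMM factors). Markers of sensory ganglion neurons, which lie outside the cord, summed to 364 CPM in PBS library 1, and to 299 and 138 CPM in syringin libraries 1 and 3, against 28.6 to 60.0 CPM in the other 3 libraries. Markers of Schwann cells, the myelin cells of nerve roots, summed to 551 to 1836 CPM in the PBS and 290.1 to 481 CPM in the syringin libraries. With the ganglion markers as a covariate in edgeR, 5 of the 10 genes passed (Hmox1 at an adjusted p of 0.0101, Ftl1, Steap3, Slc11a1 and Tfrc), as did 11.8% of all genes. The part of the Schwann cell markers was not tested.

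Syringin was compared with PBS to ask how haem and iron genes of the injured cord differed with the treatment. Of the 10 genes, Ftl1 and Steap3 rose and Tfrc fell, while the other 7 did not pass the test. The test was the quasi-likelihood test of edgeR, at a Benjamini-Hochberg adjusted p under 0.05 over 22114 genes, of which 5.01% passed, 1.62% higher and 3.39% lower with syringin. The 3 syringin values lay above the 3 PBS values for 5 of the 10 genes (Hmox1, Ftl1, Trf, Steap3 and Slc11a1) and below them for Tfrc, where 14.7% and 15.3% of all genes did so. The median log2 fold change of the 10 genes, syringin minus PBS, was 0.40, beside 0.01 over all genes tested. Together the 10 genes took 1.28%, 1.37% and 1.09% of all counts in the PBS libraries and 1.59%, 1.61% and 1.90% in the syringin libraries. The plot of CPM by library shows each value.

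**Figure D1:**
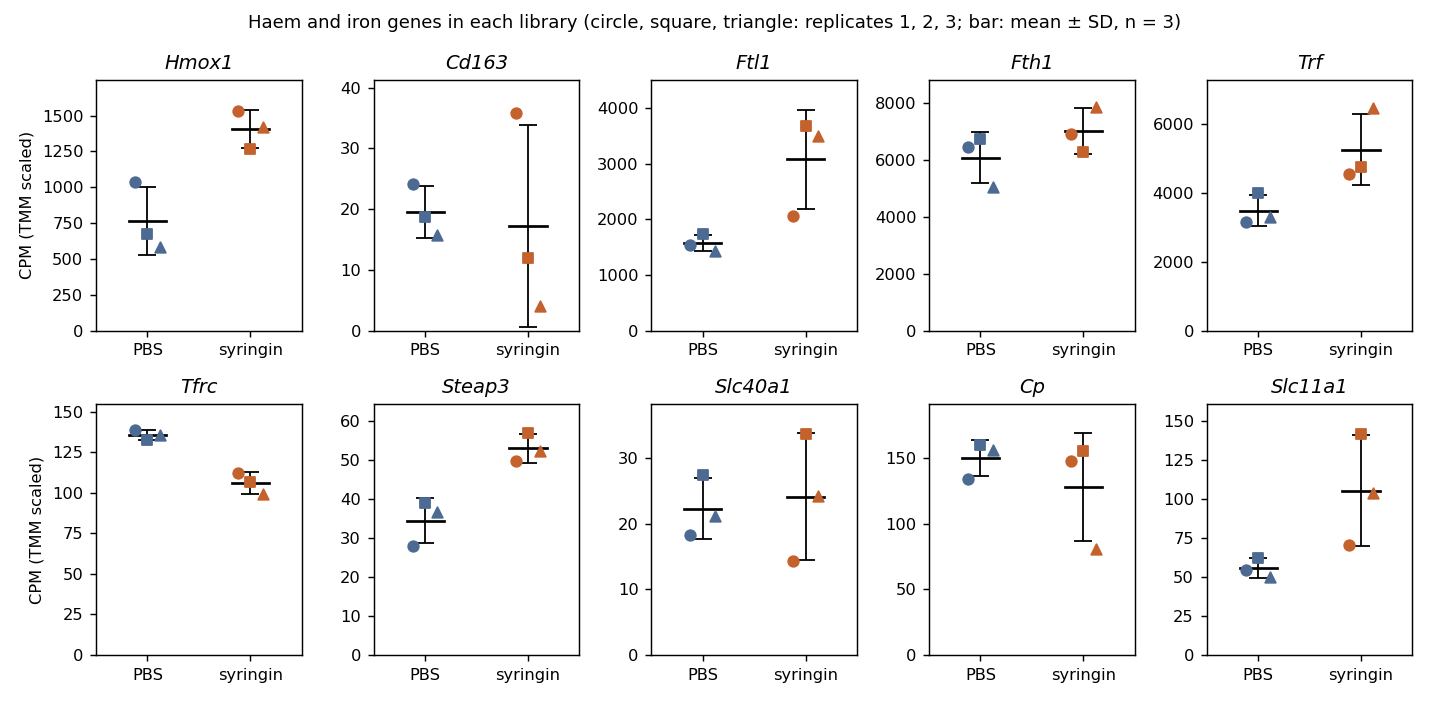
CPM of the 10 genes in each library, on linear axes from 0, PBS in blue and syringin in orange; symbols mark replicates 1 to 3 and bars the mean ± SD (n = 3). The groups do not overlap for Hmox1, Ftl1, Trf, Tfrc, Steap3 and Slc11a1, and the Cd163 values with syringin run from 3.97 to 35.8 CPM.

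Levels between genes were compared in FPKM, the authors' values per transcript length and library size. The 4 most abundant were the ferritin chains, Trf and Hmox1. Fth1 ranked 22, Ftl1 23, Trf 27 and Hmox1 42 among the 22114 genes tested by mean FPKM. In the PBS group the order was Fth1 (1629 ± 239.6 FPKM, SD, n = 3), Ftl1 (1087 ± 99.4), Trf (976 ± 122) and Hmox1 (405 ± 128), and Ftl1 and Trf overlapped between libraries. With syringin Ftl1 came first at 2090 ± 566 FPKM, before Fth1 at 1849 ± 219, Trf at 1448 ± 272 and Hmox1 at 734 ± 86.6, and the first 3 overlapped between libraries. The other 6 genes were far lower. In the PBS group Tfrc stood at 20.3 ± 0.485 FPKM, Cp at 14.6 ± 1.33, Slc11a1 at 13.9 ± 1.54, Steap3 at 5.60 ± 0.943, Cd163 at 3.31 ± 0.737 and Slc40a1 at 2.30 ± 0.476. Cp and Slc11a1 overlapped there, as did Cd163 and Slc40a1. With syringin Slc11a1 was the highest of these 6, at 25.8 ± 8.18 FPKM, before Tfrc at 15.6 ± 1.29, Cp at 12.2 ± 4.0, Steap3 at 8.47 ± 0.422, Cd163 at 2.92 ± 2.87 and Slc40a1 at 2.43 ± 0.935. Cp overlapped there with Tfrc and with Steap3, and Cd163 with Slc40a1.

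Haem breakdown came first in the pathway, and Hmox1 was high in every syringin library. Hmox1 (ENSMUSG00000005413) stood at 1036, 672 and 583 CPM in PBS libraries 1 to 3 and at 1531, 1265 and 1423 CPM in syringin libraries 1 to 3. PBS library 1 was the highest of its group and still lay below all syringin libraries. The group means were 764 ± 239.8 and 1406 ± 134 CPM (SD, n = 3), a log2 fold change of 0.88 ± 0.21 (SE), which missed the threshold in edgeR (adjusted p = 0.0544). DESeq2 (adjusted p = 0.000354) and limma-voom (adjusted p = 0.0464) called it, where they called 15.3% and 4.76% of all genes, and edgeR did without PBS library 1 (1.16 ± 0.15, adjusted p = 0.0356) but not with any of the other 5 left out (adjusted p = 0.0762 to 0.208). The spread was wider with PBS, where the highest library was 1.78 times the lowest, than with syringin, where it was 1.21 times the lowest. Hmox2, the constitutive haem oxygenase, had a value of 0.10 ± 0.14 and did not pass (adjusted p = 0.72).

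Haemoglobin mRNA, which marks red cells that still hold RNA, did not order the libraries as Hmox1 did. The 4 haemoglobin genes summed to 1194, 325 and 806 CPM in the PBS libraries and to 424, 127 and 3211 CPM in the syringin libraries. Syringin libraries 2 and 3 thus held the lowest and the highest haemoglobin level of all 6, with Hmox1 at 1265 and 1423 CPM. The erythrocyte gene Slc4a1 was at 1.69, 5.41 and 3.49 CPM with PBS and at 0.666, 0.799 and 1.38 CPM with syringin, and did not pass (adjusted p = 0.0608). Haemoglobin mRNA does not measure how much blood protein or haem the tissue held.

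Cd163, the haemoglobin scavenger receptor, had no common direction. It stood at 24.1, 18.7 and 15.7 CPM with PBS and at 35.8, 11.9 and 3.97 CPM with syringin. The syringin group held both the highest and the lowest library, a 9.02-fold range against 1.54-fold with PBS. The log2 fold change was -0.18 ± 0.71 (edgeR adjusted p = 0.913), -1.30 ± 0.46 without syringin library 1 (adjusted p = 0.138) and 0.29 ± 0.44 without syringin library 3 (adjusted p = 0.765). Lyve1, another marker of macrophages at vessels and meninges, ranked the syringin libraries as Cd163 did, at 21.2, 10.2 and 5.41 CPM. It was alone in this among the 8 markers of its list. All the others except Pf4 were highest in syringin library 2, as was Mrc1 at 55.2, 63.3 and 24.9 CPM. The marker Pf4 of that list rose (1.02 ± 0.15, adjusted p = 0.0181), alone among the 8 markers.

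The ferritin chains parted. Ftl1 (ENSMUSG00000050708) stood at 1539, 1729 and 1440.0 CPM with PBS and at 2054, 3687 and 3501 CPM with syringin. Every syringin library lay above every PBS library, and syringin library 1 lay nearest to them. Ftl1 rose by 0.97 ± 0.22 on the log2 scale (SE, edgeR adjusted p = 0.0463), from a mean of 1569 ± 147 to 3081 ± 894 CPM. Fth1 (ENSMUSG00000024661) stood at 6463, 6745 and 5060.4 CPM with PBS and at 6918, 6268 and 7884 CPM with syringin. The Fth1 groups overlapped, and its value of 0.21 ± 0.16 did not pass (adjusted p = 0.485).

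Per transcript length, the heavy chain exceeded the light chain in all 3 PBS libraries and in syringin library 1, and the light chain exceeded the heavy chain in syringin libraries 2 and 3. The ratio of Ftl1 to Fth1 FPKM was 0.617, 0.664 and 0.737 with PBS and 0.769, 1.52 and 1.15 with syringin. The groups did not overlap, and the two-sided exact permutation p was 0.1, the smallest that 3 against 3 samples can give. The sum of both chains was 2354 to 2994 FPKM with PBS and 3311 to 4420.2 FPKM with syringin (exact permutation p = 0.1). This ratio was chosen after the values of the chains were seen.

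**Figure D2:**
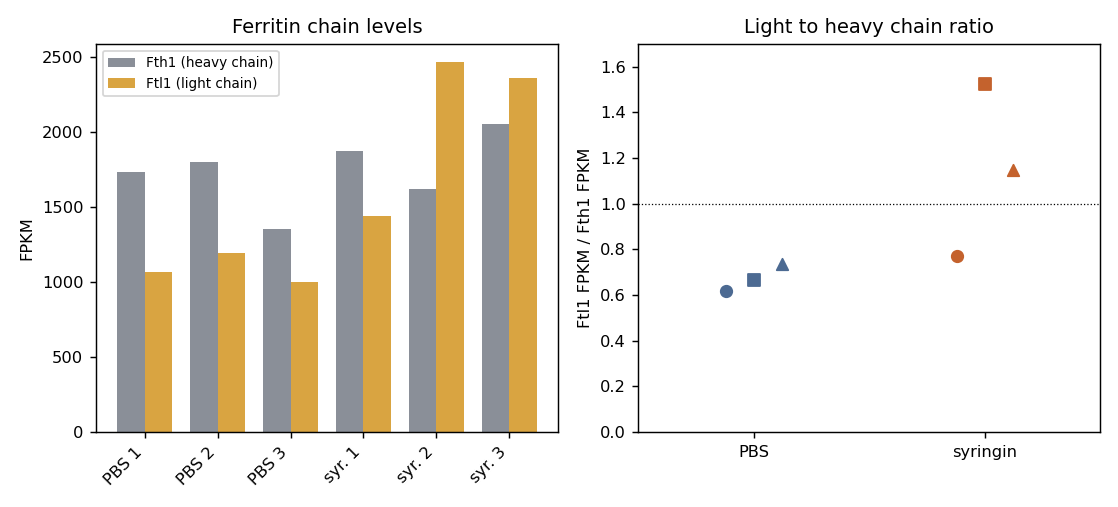
Left, FPKM of Fth1 (grey) and Ftl1 (gold) in each library, as bars from 0; right, the Ftl1 to Fth1 FPKM ratio by group, with symbols for replicates 1 to 3 and a dotted line at equal levels. The PBS ratios lie between 0.617 and 0.737, and the syringin ratios between 0.769 and 1.52.

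Ftl1 has near-identical copies in the genome, and the sources used here do not state how shared reads were counted, so its level is uncertain to that extent. The copy Ftl1-ps1 took 1.12% to 1.32% of all ferritin light chain counts and Ftl2-ps took 0.292% to 0.337%. Counts assigned to Ftl1-ps1 rose by 1.04 ± 0.23 (edgeR adjusted p = 0.048) and those of Ftl2-ps had a value of 1.02 ± 0.24 (adjusted p = 0.0548), beside 0.97 for Ftl1 itself. Whether the counts of the copies came from Ftl1 mRNA was not tested. Ftl1 has a short transcript, and the dependence of counts on transcript length differed between the groups. The log2 slope per doubling of length was 0.023 to 0.0747 with PBS and -0.103 to -0.0079 with syringin. This dependence and the treatment cannot be told apart. With the length correction the median log2 fold change of the 10 genes was 0.30, beside 0.40 without it. When each library was corrected for length, the Ftl1 value was 0.85 ± 0.20 and no longer passed (adjusted p = 0.0552), and with length and GC content it was 0.86 ± 0.20 (adjusted p = 0.0508). Leaving out any one library other than syringin library 1 ended the Ftl1 call too (edgeR adjusted p = 0.113 to 0.21), and without syringin library 1 it was 1.19 ± 0.12 (adjusted p = 0.00752).

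In the uptake route, the reductase Steap3 rose and the receptor Tfrc fell. Steap3 (ENSMUSG00000026389) stood at 27.9, 38.9 and 36.8 CPM with PBS and at 49.7, 57.1 and 52.5 CPM with syringin. No syringin library came within the PBS range. Its log2 fold change was 0.62 ± 0.14 (edgeR adjusted p = 0.0437), with 34.5 ± 5.85 and 53.1 ± 3.75 CPM as group means (SD, n = 3). The correction for transcript length left Steap3 called, at 0.73 ± 0.14 (adjusted p = 0.0326). Of the related genes, Steap1 had a value of 0.71 ± 0.22 (adjusted p = 0.105) between group means of 1.59 and 2.60 CPM, Steap2 of -0.36 ± 0.16 (adjusted p = 0.226) and Steap4 of 0.29 ± 0.24 (adjusted p = 0.519).

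Tfrc (ENSMUSG00000022797) stood at 139, 133 and 136 CPM with PBS and at 112, 106 and 99.0 CPM with syringin. Both groups were narrow, and each syringin library lay below each PBS library. Tfrc fell by 0.36 on the log2 scale (SE 0.08, edgeR adjusted p = 0.0497), from 136 ± 2.94 to 106 ± 6.64 CPM, a small change that passed by little. It did not pass in limma-voom (adjusted p = 0.0523), without TMM scaling (adjusted p = 0.0624) or with the length correction (adjusted p = 0.0623), and DESeq2 called it (adjusted p = 0.0186). Without any one library other than syringin library 1, neither Tfrc (adjusted p = 0.106 to 0.207) nor Steap3 (adjusted p = 0.0814 to 0.172) passed in edgeR. Markers of neurons, cells that carry the transferrin receptor, were lower in the same libraries: the 8 markers summed to 2151 to 2823 CPM with PBS and 978 to 1432 CPM with syringin, and 5 of them fell. Endothelial markers, of cells that also carry it, summed to 565 to 649.8 CPM with PBS and 642 to 744 CPM with syringin. Of these 8 markers 6 had positive values, and Pecam1 alone passed (0.58 ± 0.10, edgeR adjusted p = 0.0245). The other 2 were negative, Mfsd2a at -0.50 ± 0.18 (adjusted p = 0.147) and Slco1c1 at -0.54 ± 0.21 (adjusted p = 0.179). The part of neuron and endothelial markers in the Tfrc result was not tested.

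Trf, the iron carrier, stood at 3170.1, 4000.0 and 3308 CPM with PBS and at 4569.8, 4775 and 6467 CPM with syringin. The syringin libraries were the 3 highest, syringin library 3 above the other two. The means were 3493 ± 445 and 5271 ± 1041 CPM, and the value of 0.59 ± 0.17 missed the threshold (edgeR adjusted p = 0.0906). DESeq2 called it (adjusted p = 0.00427), limma-voom did not (adjusted p = 0.0776), and edgeR did not with any one library left out (adjusted p = 0.0514 to 0.302). Oligodendrocyte markers did not separate the groups. Their 8 genes summed to 18984 to 20809.9 CPM with PBS and to 18123 to 24826 CPM with syringin, and none passed. Over that sum, Trf was 0.167, 0.192 and 0.159 with PBS and 0.252, 0.263 and 0.26 with syringin. The ratios did not overlap and were close within each group (exact permutation p = 0.1, the smallest possible). The Tfrc to Trf ratio of CPM was 0.0437, 0.0332 and 0.041 with PBS and 0.0246, 0.0223 and 0.0153 with syringin. As Tfrc was lower and Trf higher in each syringin library than in each PBS library, this ratio had to separate. It adds nothing to the values of the genes themselves.

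On the release side, neither ferroportin nor ceruloplasmin passed. Slc40a1 stood at 18.3, 27.5 and 21.2 CPM with PBS and at 14.4, 33.7 and 24.2 CPM with syringin. Syringin libraries 1 and 2 were the lowest and the highest of all 6. Its value was 0.11 ± 0.29 (edgeR adjusted p = 0.866), and it turned to -0.01 without PBS library 1 and to -0.21 without syringin library 2. Cp stood at 134, 160.1 and 156 CPM with PBS and at 148, 156 and 80.6 CPM with syringin. Syringin library 3 alone lay apart. With it the Cp value was -0.23 ± 0.23 (adjusted p = 0.600), and without it 0.01 ± 0.11 (adjusted p = 0.971). Astrocyte markers, of the cells that carry ceruloplasmin, summed to 7340 to 8875 CPM with PBS and to 4873, 6631 and 6739 CPM in syringin libraries 1 to 3. All 8 had negative values and 3 fell (Slc1a2, Gjb6 and Mlc1), and Gfap made up most of the sum, at 4676 CPM in syringin library 3. Their part in the Cp values was not tested.

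Slc11a1 of the phagosome stood at 54.5, 62.3 and 50.0 CPM with PBS and at 70.6, 141 and 104 CPM with syringin. The groups did not overlap, and syringin library 1 lay nearest to the PBS libraries, as it did for Ftl1. The value was 0.92 ± 0.23 and missed the threshold (edgeR adjusted p = 0.0614). DESeq2 called it (adjusted p = 0.000562) and limma-voom did not (adjusted p = 0.0795). Without syringin library 1 edgeR called it, at 1.14 ± 0.15 (adjusted p = 0.0105).

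Markers of infiltrating monocytes and macrophages, cells that express Hmox1, Ftl1 and Slc11a1, had higher group levels with syringin, as these genes did. Within the syringin group Ftl1 and Slc11a1 ranked the libraries as the marker sum did. Hmox1 ranked them in the reverse order, at 1531, 1265 and 1423 CPM beside marker sums of 2190, 5157 and 2968 CPM. All 13 markers had positive values, 7 rose, none fell and none was at 0 in any library (median log2 fold change 0.91). The groups overlapped for Ccr2, Ly6c2, Adgre1, Itgam and Gpnmb, and none of these passed (edgeR adjusted p = 0.203 to 0.420). The 13 markers summed to 1565 to 1629 CPM with PBS and 2190.0 to 5157 CPM with syringin. Without Gpnmb, which alone reached 2702 CPM in syringin library 2, the sums were 1152 to 1176 and 1823 to 2455 CPM. Of 8 markers of homeostatic microglia 7 had negative values and none passed (median -0.53). Which cells gave these levels was not tested. Relative to the sum of all 13 markers, no separation of the groups was seen for any of 4 genes set against it. The Hmox1 ratio was 0.662, 0.414 and 0.358 with PBS and 0.699, 0.245 and 0.479 with syringin (exact permutation p = 1). The Ftl1 ratio was 0.984, 1.07 and 0.884 with PBS and 0.938, 0.715 and 1.18 with syringin (exact permutation p = 0.9). For Slc11a1 it was 0.0348, 0.0384 and 0.0307 with PBS and 0.0322, 0.0274 and 0.0349 with syringin (exact permutation p = 0.5), and for Steap3 0.0215 ± 0.00323 and 0.0171 ± 0.00583 (SD, n = 3; exact permutation p = 0.3). The groups overlapped for all 4 without Gpnmb as well. With 3 samples a group these p-values do not show that the ratios were alike, and the ratios were chosen after the data were seen.

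**Figure D3:**
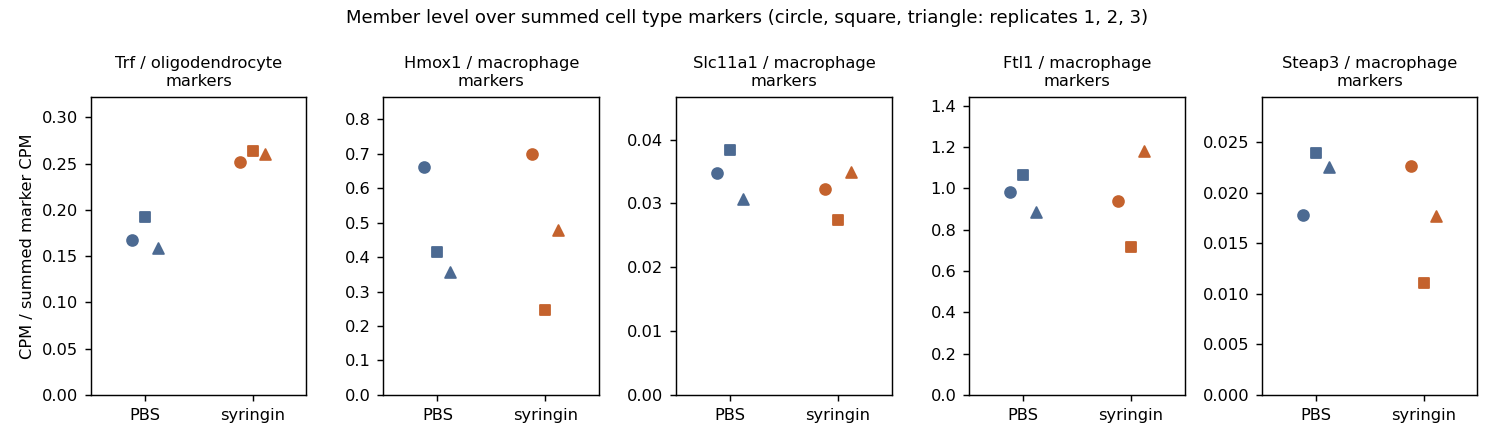
CPM of a gene divided by the summed CPM of a marker list, by group on axes from 0, with symbols for replicates 1 to 3: Trf over 8 oligodendrocyte markers, then Hmox1, Slc11a1, Ftl1 and Steap3 over 13 macrophage markers. The Trf ratios do not overlap (0.159 to 0.192 and 0.252 to 0.263), and the other 4 do.

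The remaining genes of haem and iron handling, 52 listed genes found in the table are described by their counts. Of the 50 tested, none passed in edgeR and 16 had an unadjusted p under 0.05, beside 23.6% of all genes. Limma-voom called none (13 at an unadjusted p under 0.05), where it called 4.76% of all genes. DESeq2 called 8, with 6 higher and 2 lower, where it called 15.3% of all genes. The groups did not overlap for 13 of the 50 genes with higher and 3 with lower syringin values, beside 14.7% and 15.3% of all genes. Of the 50 values 35 were positive, as were 11250 of all 22114, and the medians were 0.10 and 0.01. Whether the list differs from other genes was not tested.

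By role, the genes of haem capture, transport and breakdown had 8 positive values of 9 (median 0.30). Flvcr1, a haem exporter, was at 28.7 to 32.3 CPM with PBS and 36.1 to 47.4 CPM with syringin (0.49 ± 0.12, edgeR adjusted p = 0.0588). Blvrb, a biliverdin reductase, had a value of 0.49 ± 0.16 (adjusted p = 0.111). Of iron uptake and reduction 6 of 11 values were positive (median 0.03), with Ltf, the lactotransferrin of neutrophil granules, at -1.57 ± 0.51 (adjusted p = 0.114). All 6 tested genes of iron chaperones and ferritin turnover had positive values (median 0.19), with the iron chaperone Pcbp1 at 0.33 ± 0.09 (adjusted p = 0.088). Ncoa4, the receptor that leads ferritin to the lysosome, had a value of 0.09 ± 0.11 (adjusted p = 0.684).

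Of the export and hepcidin list 5 of 6 tested values were negative (median -0.55), and none passed. The negative genes Hamp2, Hjv and Tmprss6 had group means of at most 0.306 CPM and adjusted p of 0.306 to 0.821 in edgeR, and the median rests partly on them. Heph, a ferroxidase of iron export like Cp, was at -0.59 ± 0.19 (edgeR adjusted p = 0.115) and Bmp6, an inducer of hepcidin, at -0.67 ± 0.27 (adjusted p = 0.187). The hepcidin gene Hamp had 0 counts in every library. Among the regulators 8 of 9 values were positive (median 0.10). Bach1, a haem-binding repressor of Hmox1 and the ferritin genes, was at 53.3 to 55.4 CPM with PBS and 64.0 to 74.9 CPM with syringin (0.38 ± 0.09, adjusted p = 0.0534), and Hif1a had a value of 0.32 ± 0.12 (adjusted p = 0.158). Nfe2l2, which encodes the activator Nrf2, had a value of 0.36 ± 0.14 (adjusted p = 0.169). The iron regulatory proteins that bind the stem loops above had values of 0.08 ± 0.09 (Aco1, adjusted p = 0.654) and 0.03 ± 0.09 (Ireb2, adjusted p = 0.865). Of haem synthesis, Cpox, the coproporphyrinogen oxidase, had a value of 0.18 ± 0.09 (adjusted p = 0.291), and the list median was 0.05.

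**Figure D4:**
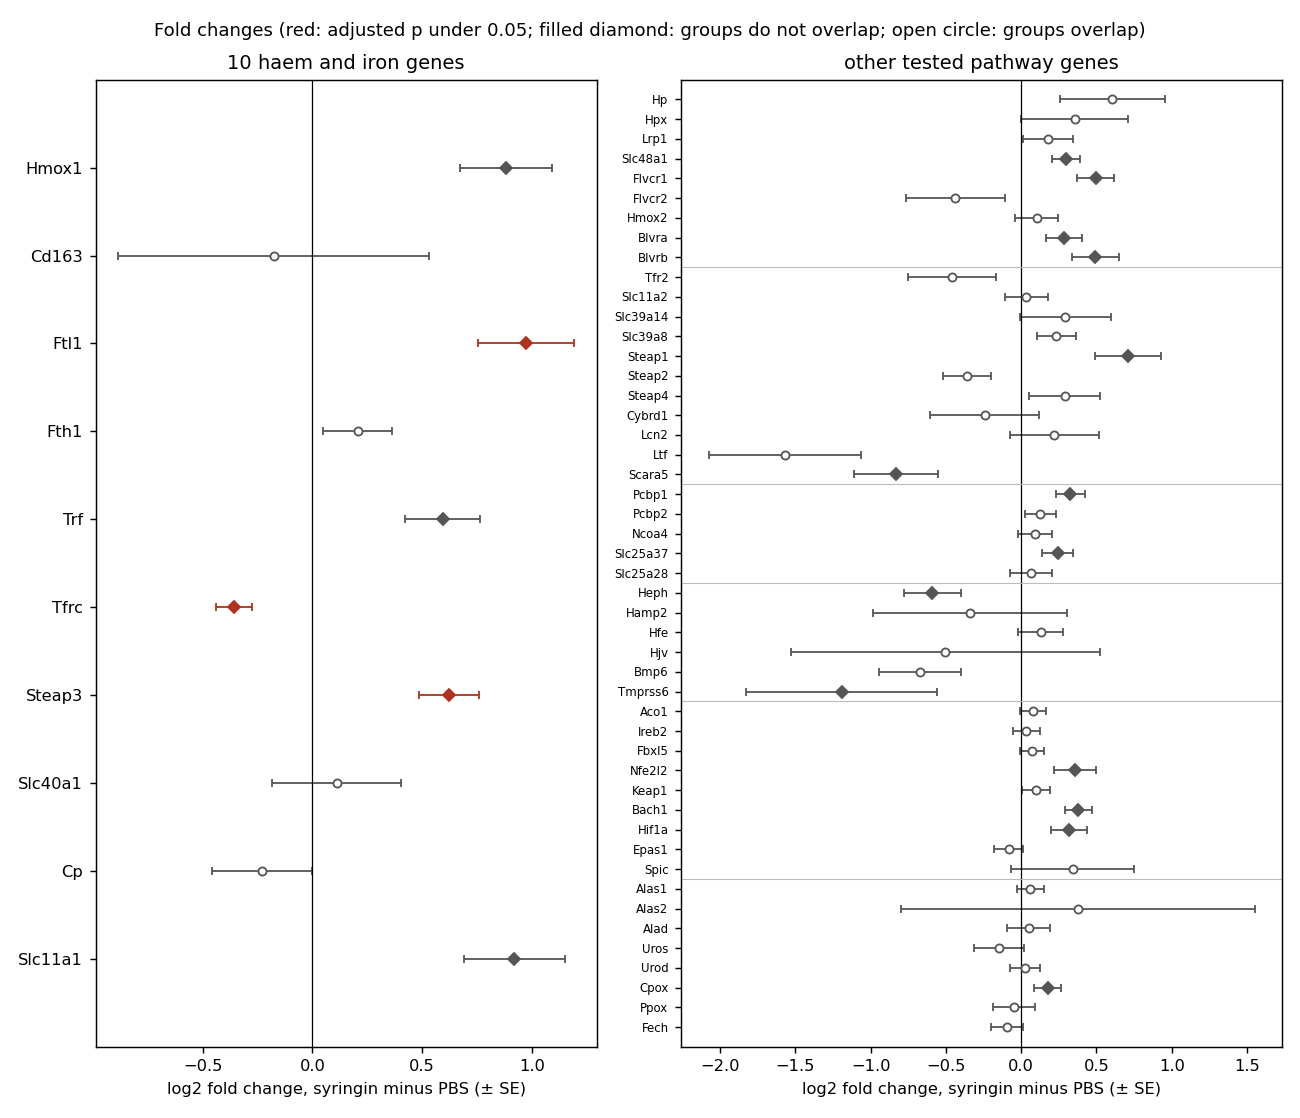
Log2 fold change, syringin minus PBS, ± SE for the 10 genes (left) and other tested genes of haem and iron handling (right, grey lines part the 6 role lists); red marks an adjusted p under 0.05 and filled diamonds groups that do not overlap. Ftl1, Steap3 and Tfrc are the 3 red genes, and no gene on the right is red.

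Up to 3 genes with library profiles nearest to each of the 10 were taken as a description, by the root mean square distance of centred log2 CPM over 6 libraries among 12571 genes whose mean reached 5 CPM. Nearest to Hmox1 were Gadd45b (0.111), Upp1 (0.12) and Crym (0.122), where the median gene lay at 0.541. Nearest to Ftl1 were Ifi30 (0.0861), Cyba (0.0938) and Exo1 (0.101), and Cyba was also nearest to Slc11a1 (0.0788), before Lat2 (0.0802) and Glipr1 (0.0899). Nearest to Steap3 were Rad51ap1 (0.0394), Lmnb1 (0.0546) and Pcna (0.0568). Tfrc lay near Exog (0.0263) and Prkacb (0.0301), and Trf near Dctpp1 (0.0776), Ehd1 (0.0779) and Nfkbie (0.0827). For Fth1 the nearest was Zfp948 (0.0301), for Cp Zfp827 (0.0804) and for Slc40a1 Rnaset2a (0.115). For Cd163 it was Aff2 (0.319), where the median gene lay at 1.01. With 6 libraries and so many genes, close profiles arise readily.

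Which of the 10 genes passed depended on the libraries in the fit. With 1 library left out, edgeR called none of the 10 genes without PBS library 2 or 3 or syringin library 2 or 3, Hmox1 alone without PBS library 1, and Ftl1, Steap3, Slc11a1 and Tfrc without syringin library 1. Of all genes, edgeR called 1.16%, 0.806% and 0.0% without PBS libraries 1, 2 and 3, and 8.55%, 1.9% and 1.1% without syringin libraries 1, 2 and 3. Without PBS library 3 edgeR called 0 of 22804 genes over the whole table, with 3449 at an unadjusted p under 0.05. Limma-voom also called 0 there, with 3532 at an unadjusted p under 0.05, and DESeq2 called 1346 genes (8.46%), Hmox1, Ftl1, Steap3 and Slc11a1 among them.

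**Figure D5:**
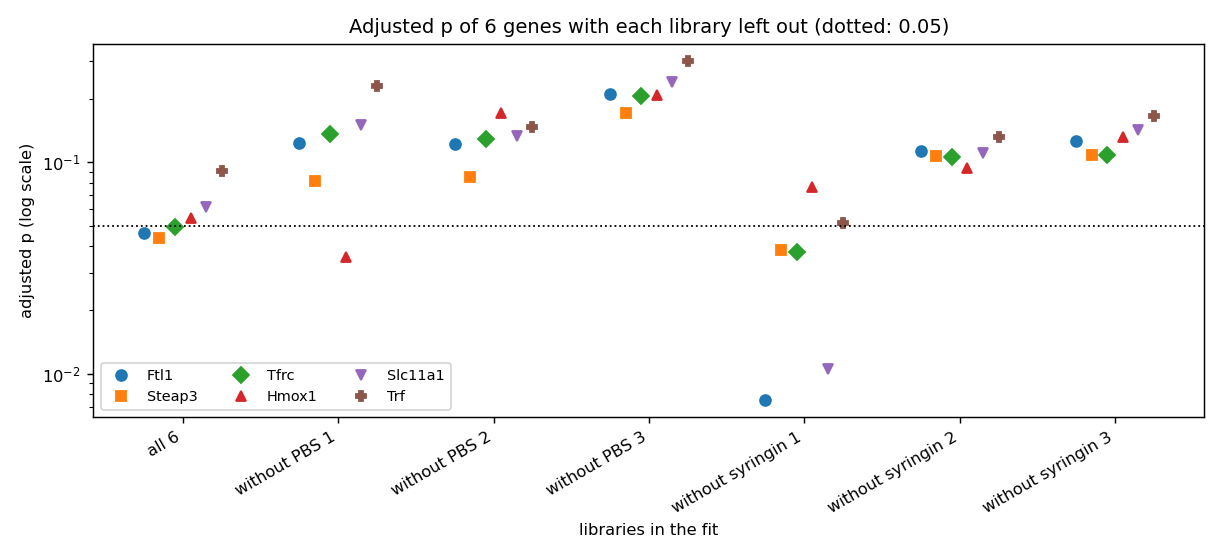
Adjusted p in edgeR, on a log axis, of Ftl1, Steap3, Tfrc, Hmox1, Slc11a1 and Trf with all 6 libraries and with each left out; the dotted line is at 0.05. With all 6 libraries Ftl1, Steap3 and Tfrc lie just under the line, and without PBS library 3 all 6 genes lie between 0.172 and 0.302.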

How the data were processed

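RNA of 6 injured cords, 3 per group, was sequenced as stranded polyadenylated libraries, per the labels' protocols. The submitters' processing notes name HISAT2, StringTie, GRCm38 and mm10; versions, roles and the strand setting are not given in the sources used here. The authors deposited estimated counts, all whole numbers, and FPKM per gene. The authors' gene coordinates match GENCODE M21 starts for 717 of 34804 shared genes, so no gene coordinates of the table are printed. The 10 genes and all gene lists were chosen with earlier results of these data known. The named genes were the 10, the 2 of each pathway list with the smallest p and the 3 nearest profiles; other pathway genes, marker genes, ferritin copies, marker ratios and the transcript search were chosen after values were seen.

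Counts were tested with edgeR 4.0.16 (TMM, robust quasi-likelihood test, filterByExpr with a minimum count of 10 and total of 15, 22114 genes) and Benjamini-Hochberg adjustment over all genes tested at 0.05. Folds are syringin minus PBS with the SE. The fit was tested on simulated data. Ratios were compared by two-sided exact permutation tests. Alternatives were DESeq2 1.42.0, limma-voom (limma 3.58.1), limma on log2(FPKM + 0.1 or 1), other scalings and filters, counts divided by 4, a replicate block, a sensory ganglion covariate, length and GC corrections (96.7% of tested genes had a length), and each library left out. At library totals of 65579117 to 78843034 counts, counting error lay far below the biological coefficient of variation of 24.9% for genes with many counts. This does not hold for tested genes with few counts, such as Hjv (0 to 19 counts). The labels call the samples biological replicates. Ftmt was not analysed here, and some genes that the naming rule selects are not reported here. Scripts ran in Python 3.11.15 and R 4.3.3.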

Additional observations from a re-analysis of the deposited data

How the results depend on the processing

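Of all genes tested 1108 were called; DESeq2 called 2799, the fit with a sensory ganglion covariate 2618, and limma-voom without PBS library 3 called 0 (3532 at an unadjusted p under 0.05). Leaving out 1 library in edgeR gave 0 to 1944. Of the 10 genes, 3 were called (5.01% of all genes). DESeq2 called 6 (15.3% of all genes), the ganglion covariate 5 (11.8%), the length correction 1 (4.66%), and the length and GC correction 1 (5.21%). Limma on log2(FPKM + 0.1) and on log2(FPKM + 1) called 0 each (3.36% and 3.57% of all genes). In each, 6 had an unadjusted p under 0.05, beside 5123 and 5103 of all 22114 genes. Limma-voom without PBS library 3 called 0 (6 at that level, beside 3532 of all 22804 genes). For these genes leaving out 1 library in edgeR gave 0 to 4, where it called 0.0% to 8.55% of all genes. Of the 50 other haem and iron genes none was called. DESeq2 called 8 (15.3% of all genes), the ganglion covariate 8 (11.8%), the length and GC correction 3 (5.21%) and the length correction 2 (4.66%). The filter at a mean of 1 CPM called 1 (8.04%), counts divided by 4 called 1 (7.34%), and DESeq2 without PBS library 3 called 2 (8.46%). Among them leaving out 1 library in edgeR gave 0 to 4, beside the 0.0% to 8.55% of all genes. With fewer samples fewer calls can be made; otherwise the cause was not tested. The DESeq2 and limma-voom fits without PBS library 3 were chosen after seeing the data.

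Only genes without a call turned in direction when 1 library was left out: Cd163 ranged from -1.30 to 0.29, Cp from -0.39 to 0.011 and Slc40a1 from -0.21 to 0.37. Over 23 alternatives Ftl1 was called in 13, Steap3 in 15, Tfrc in 8, Hmox1 in 7, Slc11a1 in 5 and Trf in 1.

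The groups share replicate numbers, and same-numbered libraries had correlations of deviations of 0.29, 0.12 and 0.05. Syringin libraries 1 and 3 correlated best with the PBS library of the same number, and syringin library 2 with PBS library 3 (0.14). These values do not settle whether the numbers mark pairs, and the main fit did not take them as pairs. With the replicate block edgeR called 2557 genes in all (11.6%), 5 of the 10 genes (Hmox1 and Slc11a1 added) and 6 of the other haem and iron genes. Scalings moved the median log2 fold change of all genes by at most 0.03. With 3 libraries a group, adjusted p-values near 0.05 limit every call here.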
